A study of Caenorhabditis elegans with 6 samples.

Results

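The mRNAs of 8 members of the PUF family of RNA-binding proteins, puf-3, puf-5, puf-6, puf-7, puf-8, puf-11, fbf-1 and fbf-2, were followed through 6 iCLIP libraries from mixed early C. elegans embryos. The members were chosen by gene symbol, and each was matched to 1 of the 46646 gene identifiers in the deposited count table, of which 9268 had a read in any library. In iCLIP, ultraviolet light ties a protein to RNA in contact with it, the protein is pulled down, and the short RNA pieces that stay attached are sequenced. In 2 libraries the protein was MEG-3::GFP, made from meg-3(ax3054[meg-3::meGFP]), and in 2 it was PGL-1::GFP, made from pgl-1(ax3122[pgl-1::GFP]), both tagged at their own loci. The remaining 2 libraries came from embryos that expressed GFP alone, and were pulled down with the same anti-GFP antibody. A single strain with GFP alone stands in the study's strain list, unc-119(ed3) with GFP driven by the promoter of pie-1. The sources used here do not say outright that it was the strain behind these 2 libraries. All embryos came from worms grown on NA22 bacteria and received 3 exposures of 400 mJ per cm2 at 254 nm. MEG-3 is a disordered protein of the gel-like part of P granules, the RNA-rich condensates that are inherited by the germline of the embryo, and PGL-1 is a scaffold of their liquid part.

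PUF proteins (named after Pumilio and FBF) bind short elements in the 3′ untranslated regions of mRNAs through a row of Pumilio repeats, and keep those mRNAs from being translated or bring about their decay. C. elegans has several, and they act mainly in the germline. FBF-1 and FBF-2 maintain the germline stem cells, PUF-8 acts in the mitotic and meiotic germline, and PUF-3, PUF-5, PUF-6, PUF-7 and PUF-11 act in late oogenesis and at the passage from oocyte to embryo. The values reported here do not measure what PUF proteins bind. They are reads from the mRNAs that encode these proteins, recovered with MEG-3::GFP, PGL-1::GFP or GFP. Libraries are named MEG-3, PGL-1 and GFP from here on.

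The libraries differed greatly in depth. The MEG-3 libraries held 225609 reads (replicate 1) and 280007 reads (replicate 2), the PGL-1 libraries 21180 and 92593, and the GFP libraries 26531 and 14040, a 19.9-fold range. Levels are therefore given as reads and as CPM, that is counts scaled to a library of 1000000 reads. In CPM, 1 read was worth 4.43 and 3.57 in the MEG-3 libraries, 47.2 and 10.8 in the PGL-1 libraries, and 37.7 and 71.2 in the GFP libraries. Where no read was found, 3 are still allowed, or 13.3 and 10.7 CPM in MEG-3, 141.6 and 32.4 CPM in PGL-1, and 113 and 214 CPM in GFP. These limits, like the 95% Wilson intervals given below, cover counting error only. Of 10 early embryo markers, 8 had 60 reads or more in both MEG-3 libraries, beside 7.09% of all genes with a read. Each of the 10 was read in at least 1 library. The list holds mRNAs already reported to localize to P granules, so the count with MEG-3 is not a neutral check of the material. None of 6 sperm markers had a read in any library, and 4 of 10 markers of later soma also had none. The summed soma markers had 32 and 15 reads in MEG-3, 0 and 28 in PGL-1, and 9 and 43 in GFP, which is 0.0142% and 0.00536% of the MEG-3 libraries, 0% and 0.0302% of the PGL-1 libraries, and 0.0339% and 0.306% of the GFP libraries. GFP replicate 2 thus stood apart, with 27 of its 43 soma reads from the muscle myosin gene unc-54. The soma list also holds unc-119, whose ed3 allele is part of the genotype of the listed strain with GFP alone.

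The gene puf-5 dominated the family. It lies on chromosome II from 8575541 to 8577787 (WBcel235, as are all positions here) and encodes a repressor of mRNAs in late oocytes. It had 2865 and 2123 reads in the MEG-3 libraries, 35 and 174 in the PGL-1 libraries, and 64 and 3 in the GFP libraries. In CPM these were 12699 and 7582 with MEG-3, 1652.5 and 1879 with PGL-1, and 2412 and 214 with GFP. Both MEG-3 libraries lay above all 4 others, and the PGL-1 values fell between those of the GFP pair. Ordered by reads, puf-5 stood at rank 1 and rank 2 of all genes in the MEG-3 libraries, at 175 and 18 with PGL-1, and at 38 and 971 with GFP. These are whole-embryo lysates, in which more cells that hold an mRNA and more copies per cell cannot be told apart.

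**Figure D1:**
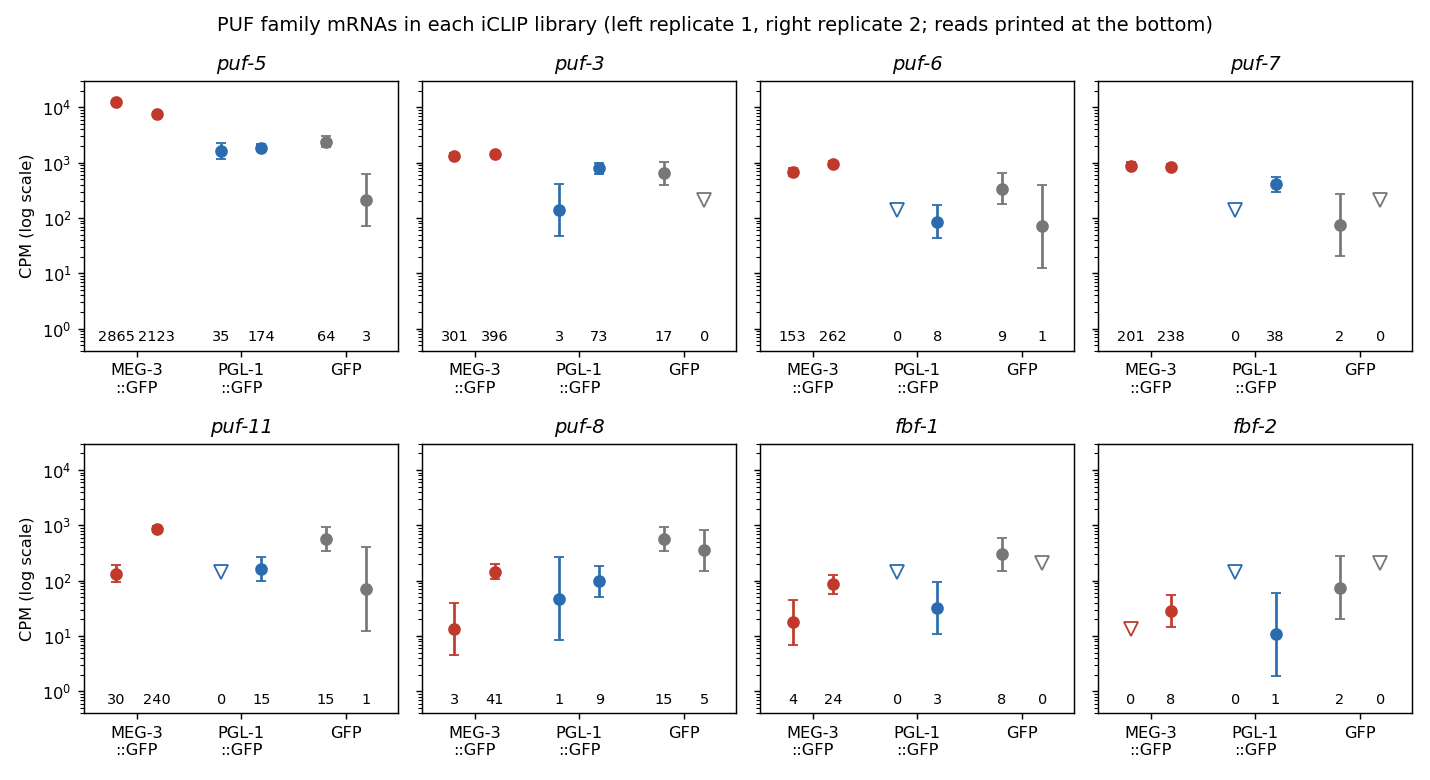
Level of each PUF mRNA in each of the 6 libraries in CPM (log axis), with replicate 1 left and replicate 2 right within each group, 95% Wilson intervals of counting error, and the reads printed at the bottom. Open triangles mark libraries with 0 reads and stand at the level that 3 reads would have; for puf-3, puf-5, puf-6 and puf-7 both red points (MEG-3::GFP) lie above all others, while for puf-8 both gray points (GFP) do.

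The genes puf-3 and puf-11 encode close relatives that act in oocytes and the early embryo, and their mRNAs gave different pictures. The gene puf-3 (chromosome IV, 13510307 to 13512162) had 301 and 396 reads with MEG-3, 3 and 73 with PGL-1, and 17 and 0 with GFP. This corresponded to 1334 and 1414 CPM with MEG-3, 141.6 and 788 CPM with PGL-1, and 641 and 0 CPM with GFP. The MEG-3 libraries were nearly equal and lay above the other 4, whereas the 2 libraries of each other group were far apart. The annotation places all 1856 bases of puf-3 inside another gene, afmd-2, which had 0 reads in all 6 libraries, and whether the counting used strand is not given in the sources used here. The gene puf-11 (chromosome IV, 6421585 to 6423497) had 30 and 240 reads with MEG-3, 0 and 15 with PGL-1, and 15 and 1 with GFP. In CPM, puf-11 had 133 and 857 with MEG-3, 0 and 162 with PGL-1, and 565 and 71.2 with GFP. Its MEG-3 replicates differed 6.45-fold and overlapped both other groups.

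The genes puf-6 and puf-7 encode a pair of near-identical proteins that work beside PUF-5 in oocytes. Reads that match both of their 2 loci may be divided between them or left uncounted, and the counts do not show which. The gene puf-6 (chromosome II, 13039792 to 13043445) had 153 and 262 reads with MEG-3, 0 and 8 with PGL-1, and 9 and 1 with GFP, or 678 and 936 CPM with MEG-3, 0 and 86.4 CPM with PGL-1, and 339 and 71.2 CPM with GFP. The gene puf-7 (chromosome IV, 5486713 to 5490322) had 201 and 238 reads with MEG-3, 0 and 38 with PGL-1, and 2 and 0 with GFP, or 891 and 850.0 CPM with MEG-3, 0 and 410.4 CPM with PGL-1, and 75.4 and 0 CPM with GFP. Both mRNAs were above all other libraries in each MEG-3 library. The pair parted in single libraries, although their MEG-3 levels were close. In PGL-1 replicate 2 puf-7 had 38 reads and puf-6 only 8, while in GFP replicate 1 puf-6 had 9 and puf-7 had 2.

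Few reads of the mRNAs of the germline stem cell and mitotic regulators were recovered with MEG-3. Recovery does not measure how abundant an mRNA is. The gene puf-8 (chromosome II, 7296115 to 7298247) had 3 and 41 reads with MEG-3, 1 and 9 with PGL-1, and 15 and 5 with GFP. Because the GFP libraries are shallow, the order turned over on the CPM scale: puf-8 had 13.3 and 146 CPM with MEG-3, 47.2 and 97.2 CPM with PGL-1, and 565 and 356 CPM with GFP. It was the only member with both GFP libraries above the other 4. The margin was small in counts, since the counting interval of the lower GFP library (152 to 833 CPM, from 5 reads) overlapped that of the higher MEG-3 library (107.9 to 199 CPM, from 41 reads). The gene fbf-1 (chromosome II, 6078263 to 6080843) had 4 and 24 reads with MEG-3, 0 and 3 with PGL-1, and 8 and 0 with GFP. Its near-identical neighbor fbf-2 (chromosome II, 6088863 to 6091480) had 0 and 8 reads with MEG-3, 0 and 1 with PGL-1, and 2 and 0 with GFP. For both fbf genes the highest CPM was in GFP replicate 1 (302 for fbf-1 and 75.4 for fbf-2), and the other GFP library had no read, so the groups overlapped. Reads that match both fbf-1 and fbf-2 may also be divided between the 2 copies or left uncounted. The annotation overlaps fbf-1 with H12I13.6 by 15 bases and puf-6 with the pseudogene F18A11.7 by 3, and both neighbors had 0 reads in every library.

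To compare levels between genes, mean CPM was divided by the length of each gene from start to end, introns included. With MEG-3 the order was puf-5 at 4513 ± 1610.3 CPM per kb (SD, n = 2 libraries, as for the following), puf-3 at 740.4 ± 30.5, puf-11 at 259 ± 268, puf-7 at 241 ± 8.02, puf-6 at 221 ± 49.8, puf-8 at 37.4 ± 44.1, fbf-1 at 20.0 ± 18.6 and fbf-2 at 5.46 ± 7.72 CPM per kb. The lower puf-5 library (3374 CPM per kb) lay well above the higher puf-3 library (762 CPM per kb), and puf-3 in turn lay above all others. The levels of puf-11, puf-7 and puf-6 overlapped, and those of puf-8, fbf-1 and fbf-2 did as well. Before the division, mean CPM with MEG-3 was 870 for puf-7, 807 for puf-6 and 495 (SD 512) for puf-11. The place of puf-11 beside puf-7 and puf-6 thus depends on dividing by a length that includes introns. The higher puf-8 library (68.7 CPM per kb) nearly met the lower puf-11 library (69.5 CPM per kb).

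Summed over the 8 genes, PUF mRNAs supplied 3557 and 3332 reads of the MEG-3 libraries, which is 1.58% (interval 1.53 to 1.63) and 1.19% (1.15 to 1.23) of all reads. They supplied 0.184% (0.135 to 0.252) and 0.347% (0.311 to 0.387) of the PGL-1 libraries, from 39 and 321 reads. In the GFP libraries the shares were 0.497% (0.420 to 0.590) and 0.0712% (0.0387 to 0.131), from 132 and 10 reads. The family share was thus larger in each MEG-3 library than in any of the other 4, by more than the counting error. This share was mostly puf-5 with MEG-3 (2865 and 2123 reads), and the share without puf-5 was not compared. With 2 libraries against 2, an exact permutation test over libraries cannot give a two-sided p under 0.333, and none is reported for this or other single values.

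**Figure D2:**
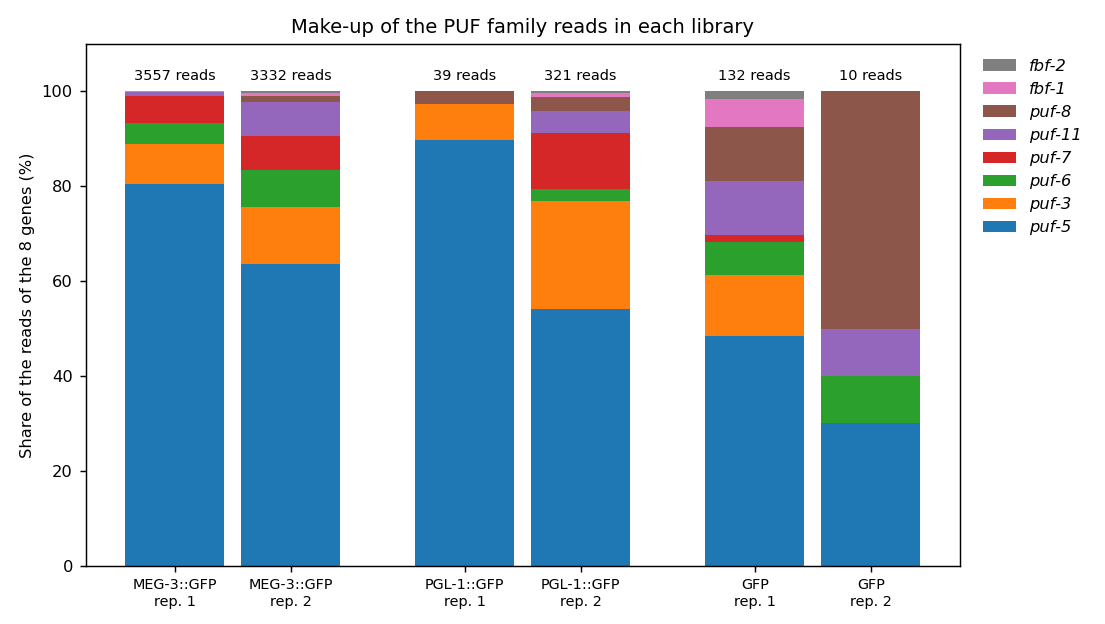
Share of each gene in the reads of the 8 PUF genes, in percent, for each library, with the total PUF reads printed above the bars. The puf-5 segment fills 80.5% and 63.7% of the MEG-3::GFP bars, while puf-8 fills the largest segment of GFP replicate 2, a bar of only 10 reads.

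Within the family, the make-up does not depend on how libraries are scaled. The share of puf-5 was 80.5% (79.2 to 81.8) and 63.7% (62.1 to 65.3) with MEG-3, 89.7% (76.4 to 95.9) and 54.2% (48.7 to 59.6) with PGL-1, and 48.5% (40.1 to 56.9) and 30.0% (10.8 to 60.3) with GFP. The 2 MEG-3 libraries differed from each other by more than counting error, and the 2 PGL-1 libraries enclosed them. The 3 genes puf-8, fbf-1 and fbf-2 together held 7 and 73 of the family's reads with MEG-3, 1 and 13 with PGL-1, and 25 and 5 with GFP. As shares these were 0.197% (0.0954 to 0.406) and 2.19% (1.75 to 2.75) with MEG-3, 2.56% (0.454 to 13.2) and 4.05% (2.38 to 6.81) with PGL-1, and 18.9% (13.2 to 26.5) and 50.0% (23.7 to 76.3) with GFP. Both GFP libraries thus gave these 3 mRNAs a larger share of the family than any library of a tagged P granule protein, although the interval of PGL-1 replicate 1 (1 of 39 reads) reached that of GFP replicate 1, and the share in GFP replicate 2 rests on 5 reads of 1 gene, puf-8.

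The study took 60 reads in both libraries as the level above which an RNA counted as recovered, a number it drew from the GFP libraries. By this measure 4 of the 8 PUF mRNAs (puf-3, puf-5, puf-6 and puf-7) passed with MEG-3, where 7.09% of the 9268 genes with a read did. The median of those 9268 genes was 0 and 5 reads in the MEG-3 libraries. None of the 8 passed with PGL-1, where 0.194% of genes did, and none with GFP, where 0.0432% did. Since 60 reads are a raw number, they correspond to 266 and 214 CPM in the MEG-3 libraries, to 2833 and 648 CPM in the PGL-1 libraries, and with GFP to 2262 and 4274 CPM. At the depth of the GFP libraries only puf-5 among the 8 could have passed at the CPM it had with MEG-3. When reads were scaled to the median library total first, 2 members passed with MEG-3 and 1 with PGL-1. Without PGL-1 replicate 1, 2 members passed with PGL-1, and without GFP replicate 2, 1 passed with GFP. The share of all genes was not computed after scaling or with a library left out, so the shares above do not belong to these counts.

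**Figure D3:**
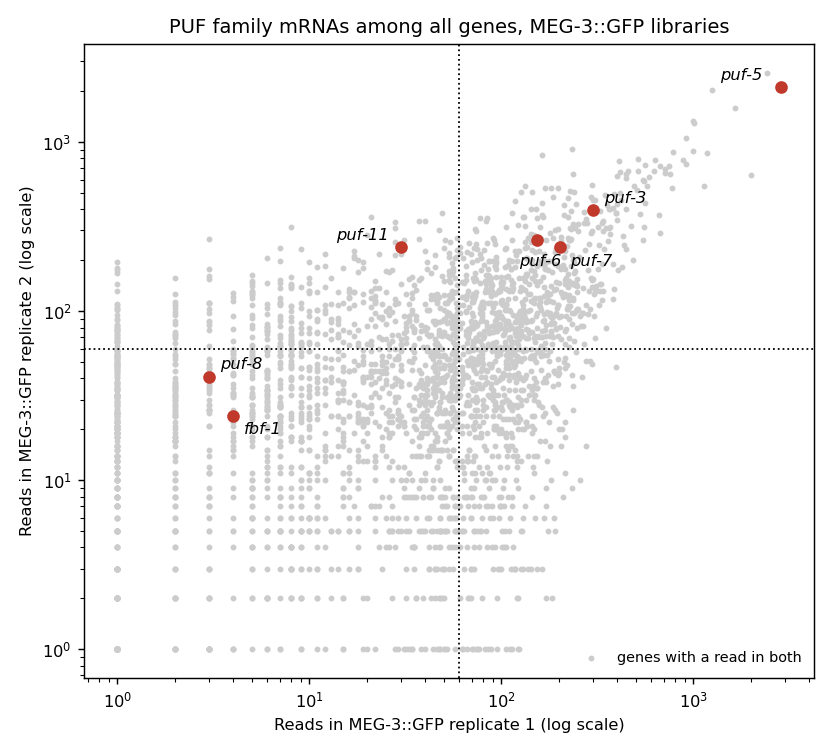
Reads in MEG-3::GFP replicate 1 (horizontal, log axis) against replicate 2 (vertical, log axis) for the 2907 genes with a read in both, with PUF mRNAs in red and dotted lines at 60 reads. The genes puf-5, puf-3, puf-6 and puf-7 lie beyond both lines, puf-11 beyond the line of replicate 2 only, and puf-8 and fbf-1 below both; fbf-2, with 0 reads in replicate 1, is not drawn.

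The PUF mRNAs differed in how far the MEG-3 replicates lay apart. Replicate 2 over replicate 1, in CPM, was 1.06 for puf-3, 0.60 for puf-5, 1.38 for puf-6 and 0.95 for puf-7, but 6.45 for puf-11, 4.83 for fbf-1 and 11.01 for puf-8. Over 1570 genes with 60 reads in either MEG-3 library and a read in both, the median fold between replicates was 2.69 (quartiles 1.56 and 6.64). Passing 60 reads in both libraries favors genes whose replicates lie close, so the small folds of puf-3, puf-5, puf-6 and puf-7 are given as a description only.

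The first comparison asked which RNAs were recovered with MEG-3 beyond the background of GFP alone. In both MEG-3 libraries puf-3, puf-5, puf-6 and puf-7 were above both GFP libraries in CPM, puf-8 was below both, and puf-11, fbf-1 and fbf-2 overlapped. A higher CPM without overlap was seen in 15.4% of the 7370 genes with a read in any of the 4 libraries and in 28.6% of the 2033 genes that passed edgeR's filter on low counts, against 4 of the 8 members. A lower CPM without overlap was seen in 10.0% of the 2033 genes, against 1 of the 8 members. Without GFP replicate 2 there were 3 such members, but the share of all genes was not computed for that looser pattern. Of the members, 6 passed the filter, and fbf-1 and fbf-2 did not. In a fit of all 6 libraries (edgeR, quasi-likelihood test, p-values adjusted over all 2033 genes by the Benjamini-Hochberg method), 0% of genes and none of the 6 members tested were called at an adjusted p under 0.05. DESeq2 called 44 genes, none of them a member. Without adjustment 17 genes were higher and 46 lower at p under 0.05, and puf-5 was the only member among them.

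The spread between replicates was wide in this fit. The log2 fold change of MEG-3 over GFP was 3.26 for puf-5 (SE 1.63, adjusted p = 0.999 by edgeR). It was 4.65 for puf-7 (SE 2.91), 2.39 for puf-3 (SE 2.29), 2.28 for puf-6 (SE 2.55), 0.99 for puf-11 (SE 2.47) and -2.12 for puf-8 (SE 2.78), each with an edgeR adjusted p of 0.999. For puf-6, puf-8 and puf-11 the standard error was larger than the change itself. The median over all genes tested was 0.73, and it was 0.19 with DESeq2's size factors and 0.25 with library totals alone. The place of each member among all genes is therefore given too, as a description only. A gene can pass the filter through the group where it is high. With only PGL-1 and GFP fitted, 430 genes passed, and puf-3 and puf-5 were the only members among them. In the fit of all 6 libraries, the share of genes tested with a smaller log2 fold change was 94.6% for puf-7, 88.1% for puf-5, 78.4% for puf-3, 76.8% for puf-6, 54.8% for puf-11 and 11.8% for puf-8. Of the soma markers only unc-54 passed the filter, with a log2 fold change of -5.76 (SE 2.95, edgeR adjusted p = 0.999), and the part of such RNA in the differences from GFP was not tested. The value of puf-11 rested on MEG-3 replicate 2, since it became -1.003 without that library. The 2 GFP libraries are named in another style than the other 4, and if that marks a batch, batch and control cannot be told apart.

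**Figure D4:**
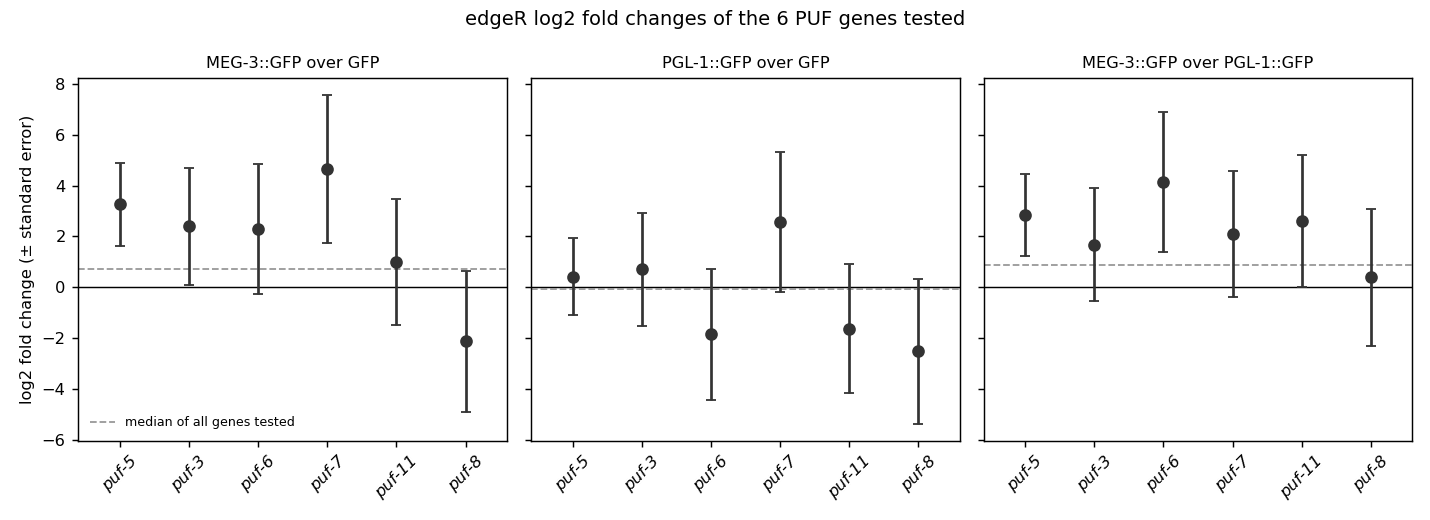
log2 fold changes from edgeR for the 6 PUF genes that passed the filter on low counts, in the comparisons of MEG-3::GFP over GFP, PGL-1::GFP over GFP and MEG-3::GFP over PGL-1::GFP, with bars of 1 standard error. Dashed lines mark the median of the 2033 genes tested; all but puf-8 lie above it in the left and right panels, and none of the 18 values passed the adjusted threshold.

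The same question for PGL-1 gave no PUF mRNA clear of the GFP libraries. None of the 8 members was above both GFP libraries in both PGL-1 libraries, a pattern seen in 2.84% of 8516 genes with a read in any of these 4 libraries and in 6.74% of the 2033 genes tested. Without PGL-1 replicate 1, or without GFP replicate 1, there were 2 such members. The mRNA of puf-8 had a lower CPM in each PGL-1 library, as did 10.5% of the genes tested, and such members numbered 3 without PGL-1 replicate 2 and 6 without GFP replicate 2. With a library left out, either pattern is easier to meet for every gene, and the share of all genes was not computed. The log2 fold changes were 2.56 for puf-7 (SE 2.74), 0.71 for puf-3 (SE 2.21), 0.42 for puf-5 (SE 1.5), -1.62 for puf-11 (SE 2.53), -1.85 for puf-6 (SE 2.57) and -2.52 for puf-8 (SE 2.86). The fit called 0% of genes (edgeR, adjusted p = 0.999 for each member; 10 genes higher and 6 lower at unadjusted p under 0.05, no member among them), and DESeq2 also called 0. Single libraries decided these values: without GFP replicate 2 puf-3 became -0.24 and puf-5 -0.47, and without PGL-1 replicate 2 puf-3 became -1.45 and puf-7 -5.25. Without GFP replicate 1, puf-6 became 0.11 and puf-11 0.97. This comparison shares its GFP libraries with the one before.

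MEG-3 was then set against PGL-1 directly. In both MEG-3 libraries puf-3, puf-5, puf-6 and puf-7 were above both PGL-1 libraries in CPM, as were 10.6% of the 8956 genes with a read in any of the 4 libraries and 29.4% of the genes tested. Without MEG-3 replicate 1 all 8 members were, but this pattern is easier to meet for every gene. The share of all genes was not computed for it. No member had a lower CPM in each MEG-3 library, a pattern of 5.26% of the genes tested. Without MEG-3 replicate 2 there was 1 such member, and the share of all genes was not computed there either. The log2 fold changes of MEG-3 over PGL-1 were 4.13 for puf-6 (SE 2.75), 2.84 for puf-5 (SE 1.60), 2.61 for puf-11 (SE 2.58), 2.09 for puf-7 (SE 2.48), 1.68 for puf-3 (SE 2.21) and 0.39 for puf-8 (SE 2.70). The median over all genes was 0.88, or 0.25 with DESeq2's size factors and 0.46 with library totals, and the sign of puf-8 turned under both of these (-0.28 and -0.05). Of the genes tested, 98.0% had a smaller value than puf-6 and 90.5% a smaller value than puf-5. These places are a description only, because a gene can pass the filter through the group where it is high. With only PGL-1 and GFP fitted, puf-6 did not pass. The fit called 0% of genes (edgeR, adjusted p = 1 for each member; 0 genes higher and 26 lower at unadjusted p under 0.05, no member among them), whereas DESeq2 called 2 genes, neither of them a member. For puf-6 the comparison rested on 0 and 8 reads with PGL-1, and the 0 allows up to 141.6 CPM, below the 678 CPM of the lower MEG-3 library.

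The other PUF genes of the annotation were barely recovered. The gene puf-9 had 0 and 19 reads with MEG-3, 0 and 37 with PGL-1, and 5 and 0 with GFP, and puf-12 had 0 and 21 with MEG-3, 0 and 15 with PGL-1, and 1 and 0 with GFP. The genes puf-4 and puf-10 are annotated as pseudogenes. While puf-4 had no read in any library, puf-10 had 3 and 30 reads with MEG-3, 0 and 4 with PGL-1, and none with GFP. None of these 4 reached 60 reads in both libraries of any group.

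Genes whose proteins work with PUF proteins were looked at next, from a list of 20 partners and effectors, of which 19 were found by name (ntl-1 was not). In both MEG-3 libraries 10 of the 19 (52.6%) had 60 reads or more, beside 7.09% of all genes with a read. The median of all genes with a read was only 0 and 5 reads in the MEG-3 libraries. Of the 10 early embryo markers 8 passed too (nos-2 is on both lists), so passing was not particular to the partners. The highest was cgh-1, a DEAD-box helicase of translational repression, with 2422 and 2568 reads with MEG-3, 85 and 293 with PGL-1, and 67 and 7 with GFP. It was the only partner with 60 reads in both PGL-1 libraries, and in MEG-3 replicate 2 it had more reads than puf-5. Next came larp-1, a La-related RNA-binding protein, with 621 and 677 reads with MEG-3, 4 and 101 with PGL-1, and 32 and 5 with GFP. The remaining 8 that passed were nos-2 (a Nanos protein), the cytoplasmic poly(A) polymerase gene gld-2 with gld-3 and rnp-8 for its partner proteins, lst-1 (an FBF partner in stem cells), dlc-1 (a dynein light chain) and the deadenylase genes ccf-1 and ccr-4. Their MEG-3 counts ran from 81 reads for ccr-4 to 368 reads for dlc-1, both in replicate 1.

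Passing 60 reads did not mean exceeding GFP. The deadenylase gene ccr-4 had 81 and 187 reads with MEG-3 and 50 and 10 with GFP, which is 359 and 668 CPM with MEG-3 and 1885 and 712 CPM with GFP, so that both GFP libraries were above both MEG-3 libraries. Over the 16 partners tested, the median log2 fold change of MEG-3 over GFP was 1.82, beside 0.73 for all genes. A higher CPM without overlap was seen in 9 of these and a lower one in 2, beside 28.6% and 10.0% of all genes tested. None was called by edgeR (0 at unadjusted p under 0.05). For PGL-1 over GFP the median was -0.27, beside -0.05 for all genes, with 1 partner higher and 1 lower without overlap (6.74% and 10.5% of all genes tested), and for MEG-3 over PGL-1 it was 1.82, beside 0.88 for all genes, with 8 higher and none lower (29.4% and 5.26% of all genes tested).

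Of 14 genes known as mRNA targets of FBF, PUF-8 or PUF-5, 3 (21.4%) had 60 reads in both MEG-3 libraries, beside 7.09% of all genes with a read. These were gld-1, a translational repressor of meiotic germ cells, with 237 and 644 reads, pal-1, a homeodomain factor of the posterior embryo, with 423 and 183, and glp-1, a Notch receptor, with 82 and 129. With GFP the same genes had 38 and 0 reads (gld-1), 41 and 0 (pal-1) and 27 and 0 (glp-1), so that GFP replicate 1, in CPM, overlapped or exceeded the MEG-3 libraries. Of the 8 tested, none was higher with MEG-3 than with GFP without overlap (28.6% of all genes tested were), and 5 were higher with MEG-3 than with PGL-1 (29.4% of all genes tested). Their median log2 fold change was 0.50 for MEG-3 over GFP (0.73 for all genes), -1.27 for PGL-1 over GFP (-0.05 for all genes) and 1.90 for MEG-3 over PGL-1 (0.88 for all genes). None was called by edgeR (0 at unadjusted p under 0.05 in each comparison).

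Finally, for each member tested the 3 genes were found whose log2 CPM (with a prior count of 2) lay nearest over the 6 libraries, as a Euclidean distance in log2 units. The nearest profile to puf-5 was that of cgh-1 (distance 1.90), followed by car-1 (2.42) and ptc-1 (2.58). The gene puf-7 had the closest match of all 6 members, cct-5, a subunit of the chaperonin that folds tubulin, at a distance of 0.45, with 198 and 186 reads with MEG-3, 0 and 31 with PGL-1, and 2 and 0 with GFP. It was followed by D2023.6 (0.54) and srgp-1 (0.96). The gene puf-3 was nearest to ptr-2 (0.71), ZK829.9 (1.11) and T13C2.6 (1.42), and puf-6 to C14B1.9 (0.77), nmt-1 (1.47) and tag-340 (1.57). The gene puf-11 was nearest to gsy-1 (1.15), F33H2.2 (1.18) and bath-42 (1.32), and puf-8 to sams-4 (1.30), let-60 (1.61) and rpn-11 (1.66). No PUF gene was among the 3 nearest of another, also not within the pairs puf-6 and puf-7 or puf-3 and puf-11, alike in protein. How far apart the genes of each pair lay is not given, so this does not show that their recovery differed. The distances above are over 6 libraries of unequal depth and describe them only.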

How the data were processed

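iCLIP had 2 libraries for each tagged protein and 2 for GFP. The authors clipped adaptors and barcodes (fastx_clipper, custom code), mapped to ws235 (HISAT2, version 2.1.0 in the submitters' processing notes), dropped PCR duplicates and ran HTSeq-count on genes. They deposited raw counts, neither normalized nor pooled. Counting options, strand setting and annotation file are not given in the sources used here. The table has 47085 rows for 46646 identifiers. The 438 identifiers on several rows had identical counts on each and were used once. Columns were matched to libraries by protein and by which library of a pair is named a replicate.

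The study describes independent experiments, but the labels do not say whether the libraries come from separate cultures, so that p-values measure only the spread between these libraries. Differences were tested with the 6 libraries fitted jointly and no block, by the quasi-likelihood test of edgeR 4.0.16 (R 4.3.3, TMM, filterByExpr by group, Benjamini-Hochberg adjustment over 2033 genes). DESeq2 1.42.0 was run as the other tool. Standard errors are log2 fold changes, without sign, over the root of F. The script was tested on simulated data. Python 3.11.15, pandas 2.3.3, numpy 2.4.6, SciPy 1.17.1 and matplotlib 3.10.9 were used. Positions and gene types come from the RefSeq table of WBcel235. Wilson intervals are at 95%. Library totals ran from 14040 to 280007 reads.

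The members, the gene lists, the tests and the alternatives were chosen with earlier results of these data known, so that none is independent evidence. All members and the other PUF genes are named. Genes of the partner and target lists are named with 60 reads in both MEG-3 libraries or with no read, while marker lists are given as counts and sums. The values of ccr-4 and unc-54 were singled out after they were seen. Alternatives changed the block, the normalization, the filter, the tool, the groups in the fit, the threshold and the libraries. Levels per coding length and the identity between member proteins were not run, because no transcript or protein sequences were used here.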

Additional observations from a re-analysis of the deposited data

How the results depend on the processing

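For the 6 members with a main value, no log2 fold change with an adjusted p passed the threshold. Of 104 values under other normalizations, filters, tools, blocks or group choices 4 turned sign and 2 (puf-8 and puf-11 in MEG-3 over PGL-1, by DESeq2) had no adjusted p, and of 108 values with a library left out 9 turned sign. The alternatives that also tested fbf-1 or fbf-2 gave 13 values, none past the threshold. Among the 4 was puf-8 in MEG-3 over PGL-1, which became -0.28 with DESeq2's size factors in edgeR, -0.0495 with library totals and -0.28 in DESeq2. Leaving out single libraries gave ranges that crossed 0 for puf-11 in MEG-3 over GFP (-1.003 to 3.71), for puf-3 (-1.45 to 8.83, and -0.24 without GFP replicate 2), puf-5 (-0.47 to 3.37), puf-6 (-7.51 to 0.11), puf-7 (-5.25 to 7.79) and puf-11 (-8.15 to 0.97) in PGL-1 over GFP, and for puf-8 in MEG-3 over PGL-1 (-2.49 to 1.13, and -0.32 without PGL-1 replicate 1). Where a group is then 1 library, it is assumed to vary like the others. In MEG-3 over GFP the ranges of the other members kept their sign: 1.28 to 10.54 for puf-3, 2.22 to 6.29 for puf-5, 1.44 to 4.29 for puf-6, 3.68 to 9.87 for puf-7 and -4.63 to -1.19 for puf-8. The high ends came without GFP replicate 1, which left a GFP library of 14040 reads. Genes called in MEG-3 over GFP were 0 by edgeR, 2 with only these groups in the fit and 44 by DESeq2; in MEG-3 over PGL-1 they were 0 by edgeR and 2 by DESeq2. They stayed at 0 in all 3 comparisons with any 1 library left out. The cause of these differences was not tested.

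Members with 60 reads in both MEG-3 libraries numbered 4, or 2 after scaling to the median library total, and 4 to 5 with 1 library left out. With PGL-1 they numbered 0, or 2 with 60 reads in either library, 1 at 30 reads, 1 after scaling, and 0 to 2 with 1 library left out. With GFP they numbered 0, or 1 with 60 reads in either library, and 0 to 1 with 1 library left out. With 1 library left out, members higher without overlap numbered 4 to 6 for MEG-3 over GFP, 0 to 2 for PGL-1 over GFP and 4 to 8 for MEG-3 over PGL-1 (8 without MEG-3 replicate 1). Counts of members lower without overlap were added after seeing the data. They ran from 1 to 3 for MEG-3 under GFP (3 without GFP replicate 2), from 1 to 6 for PGL-1 under GFP (2 with DESeq2 size factors, 6 without GFP replicate 2) and from 0 to 1 for MEG-3 under PGL-1. For none of these alternative counts of members, by threshold or by overlap, was the share of all genes computed. Without puf-6 and puf-7 in the sum, the share of puf-5 was 89.45% and 74.96% with MEG-3 and 63.27% in PGL-1 replicate 2. Depth limits the PGL-1 and GFP values most, where 1 read is worth 10.8 to 71.2 CPM. The column names number the libraries of each group, and nothing says that a number marks a shared culture or day. Differences between replicates 1 and 2 correlated across the 2033 genes at -0.054 (MEG-3 and GFP), 0.188 (PGL-1 and GFP) and 0.048 (MEG-3 and PGL-1). With a single such difference per group, these values cannot tell whether a number marks a shared culture or day. With a replicate block, added after seeing the data, edgeR called 0 genes in each comparison, and puf-11 in MEG-3 over GFP became -0.303.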
